A study of Mus musculus with 8 samples.

Results

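The elastic fibre genes of the mouse thoracic aorta were followed in this series: Eln, Fbn1, Fbn2, Fbln2, Fbln5, Efemp2, Lox, Loxl1, Mfap4 and Emilin1. Their members on the array were all non-control probes whose identifier is a RefSeq transcript of these 10 genes, which gave 14 of the 55681 probes. Fbn2, Fbln5, Lox and Loxl1 had 2 probes each and the other genes had 1. RNA from the thoracic aorta of 4 Fto -/- samples was compared with RNA from 4 Fto +/+ samples, each read on its own single-dye (Cy3) expression array, to ask what Fto deficiency does to vascular gene expression. The product of Fto demethylates adenosines of RNA. Both genotypes were on a C57BL6J/NMRI background, labelled male, housed with 12 h light and 12 h dark phases and free food and water, and no treatment is named in the labels. The sources used here do not give age, the extent of the deleted part or the tissues that lack Fto. Nor do they say whether the samples of a genotype are separate animals, so p-values cover the spread among samples, which may be technical.

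Elastic fibres give the wall of large arteries its recoil. Smooth muscle cells secrete tropoelastin, the product of Eln, which is deposited on a scaffold of microfibrils built from fibrillins (Fbn1 and Fbn2). Of the fibulins, those encoded by Fbln5 and Efemp2 (fibulin-4) carry tropoelastin and the cross-linking enzymes to that scaffold, and that of Fbln2 binds fibrillin and tropoelastin. The copper enzymes lysyl oxidase (Lox) and lysyl oxidase-like 1 (Loxl1) join the chains. Mfap4 and Emilin1 encode glycoproteins found with the fibre.

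Fto itself was lower in every Fto -/- sample. Its level was -2.51 ± 0.24 in Fto -/- and 0.57 ± 0.21 in Fto +/+ samples (SD, n = 4 each), a difference of -3.08 ± 0.15 (SE; limma adjusted p = 0.000403, exact two-sided permutation p = 0.0286, the smallest that 4 against 4 allows). The free-text description of each sample names the other genotype than its title and genotype field, and the groups here follow the title. Against the male label, both Xist probes stood well above background on each of the 8 arrays, with intensities from 301.8 to 1255, while the probes of Ddx3y, Kdm5d and Eif2s3y were so on 0 arrays. Of the 2 Uty probes, 1 was so on 1 array, with a highest intensity of 207.8, and the other on 0. All 6 smooth muscle and all 6 endothelial markers examined were measured. The same held for the markers of adventitial fibroblasts, of T cells and thymocytes, and of cardiac and skeletal muscle. Levels throughout are log2 processed intensity relative to the 75th percentile of the array, which lay between 294.9 and 415.6. The arrays lay in 2 rows of 1 slide, and row 1 held Fto -/- replicates 1, 2 and 3 with Fto +/+ replicate 1. Any difference given within a row therefore sets 1 array of a genotype against 3 of the other. Since these are whole pieces of vessel, fewer cells of a type and less RNA per cell cannot be told apart.

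Among the elastic fibre genes, a dim probe of Fbln5 was lower in Fto -/- aortas and no other probe passed the test. Of the 14 probes, 12 from 9 genes reached a signal well above background on 4 or more arrays and were tested, and of these 1 was lower and 0 were higher at a limma adjusted p under 0.05. Over the whole array 0.814% of the 25292 tested probes were lower and 0.842% higher at that threshold, 1.66% in all. Without adjustment 1 of the 12 had a p under 0.05, against 19% of all tested probes. The fitted difference was below 0 for 11 of the 12 probes, against 52.6% of all tested, with a median of -0.15 against -0.015. These 12 probes share the same 8 arrays and several share a gene, so they are not independent of each other.

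**Figure D1:**
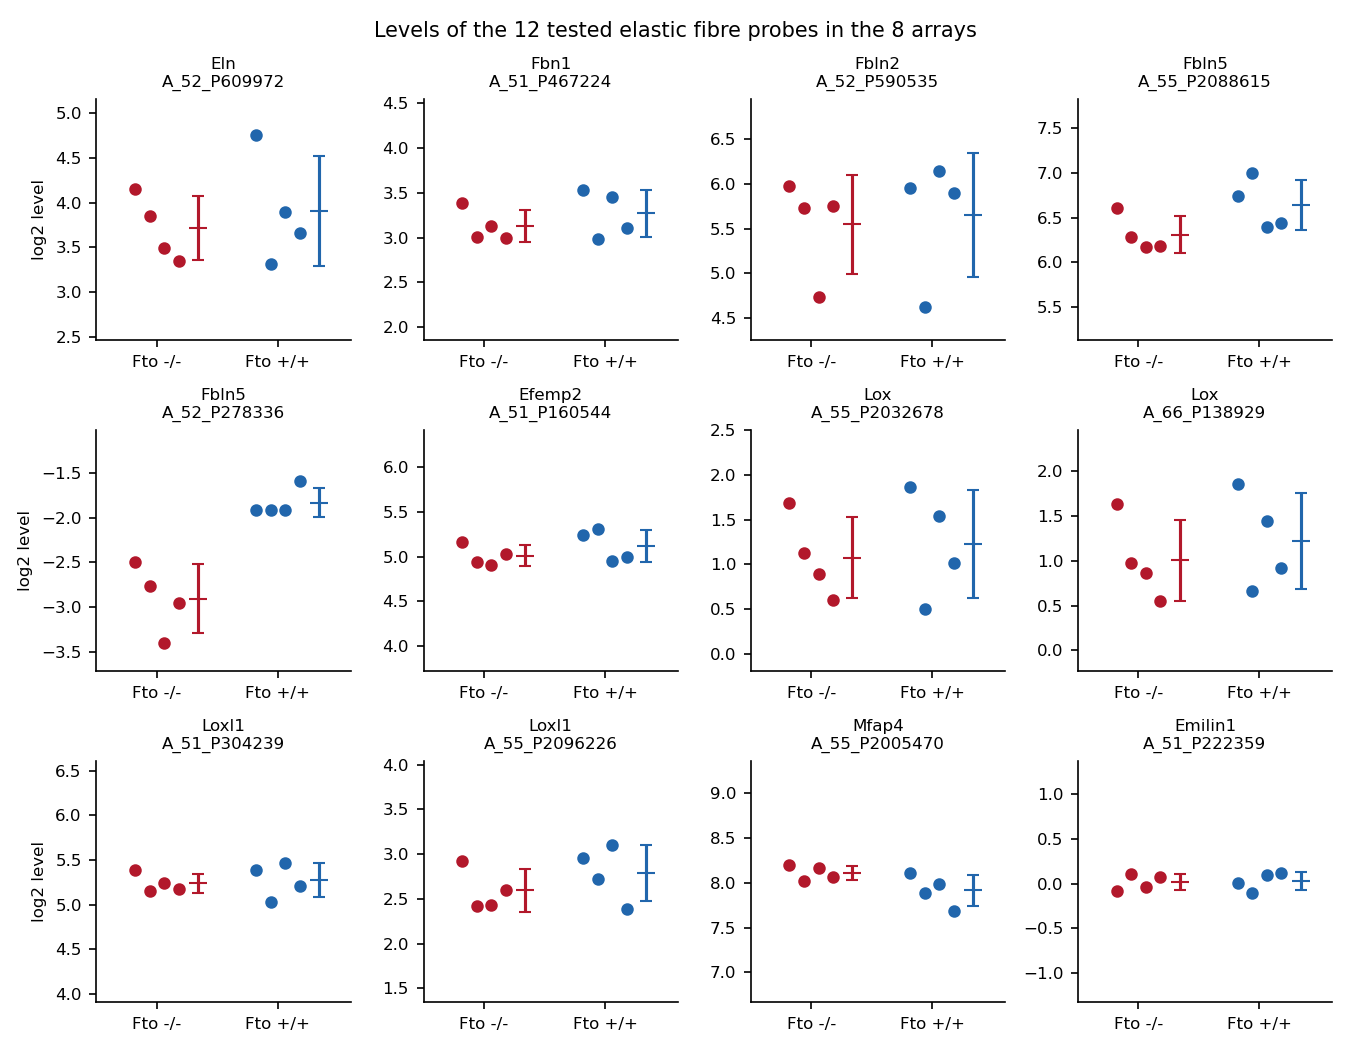
Log2 level (relative to the 75th percentile of the array, vertical axis, each panel spanning the same width in log2 units) of the 12 tested probes, with Fto -/- arrays at the left and Fto +/+ arrays at the right of each panel; points are arrays and bars give the mean ± SD (n = 4). The genotypes do not overlap for Fbln5 probe A_52_P278336, and they overlap for the other 11.

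Fbln5 encodes fibulin-5, which binds tropoelastin, integrins and lysyl oxidase-like enzymes. Its probe A_52_P278336 (transcript NM_011812) read an intensity of 66.4, 46.9, 27.8 and 43.4 in Fto -/- replicates 1 to 4, against 99.6, 110.0, 101.2 and 106.2 in Fto +/+ replicates 1 to 4. Every Fto -/- array lay below every Fto +/+ array, as was so, in either direction, for 12.1% of all tested probes. The level was -2.91 ± 0.38 in Fto -/- and -1.83 ± 0.16 in Fto +/+ samples (SD, n = 4 each). The signal was thus 2.10-fold lower in Fto -/- samples (95% interval 1.56-fold to 2.83-fold; log2 difference -1.07 ± 0.19 SE, limma adjusted p = 0.0353).

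The other Fbln5 probe, A_55_P2088615, is annotated with the same transcript and was bright on every array. It read 36459, 24837, 21309 and 24312 in Fto -/- replicates 1 to 4, against 40214, 52954.5, 32167.5 and 27728 in Fto +/+ replicates 1 to 4. Fto -/- replicate 1 lay among the Fto +/+ values, while the other 3 Fto -/- arrays lay below all of them. Its difference of -0.33 ± 0.16 (SE; 95% interval -0.70 to 0.037) did not pass (limma adjusted p = 0.308). The log2 ratio of the dimmer to the brighter probe, which gives no relative abundance, was -9.22 ± 0.25 in Fto -/- and -8.48 ± 0.39 in Fto +/+ samples (SD, n = 4 each). Every Fto -/- array had a lower ratio than every Fto +/+ array, with a difference of the means of -0.74. The exact two-sided permutation p of that change was 0.0286, and 0.0857 when adjusted over the 3 pairs of probes compared. With normexp background correction, which here added an offset of 50 to each signal, the change was -0.085 (exact two-sided permutation p = 0.657). Such an offset by itself shrinks log2 differences of a probe as dim as A_52_P278336.

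**Figure D2:**
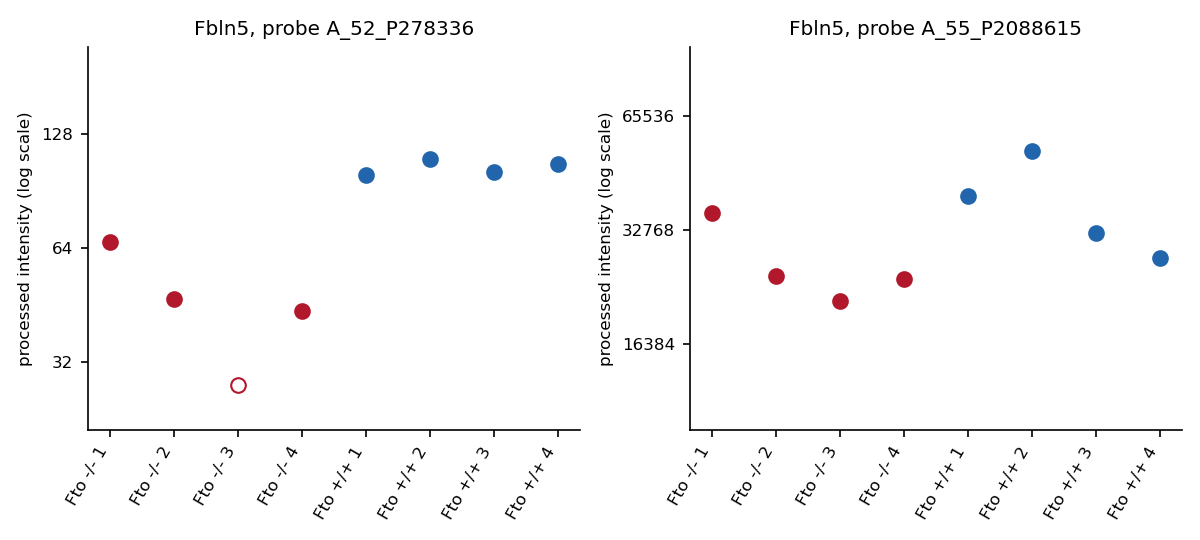
Processed intensity (log axis) of the dim (left) and the bright (right) Fbln5 probe in each array, Fto -/- in red and Fto +/+ in blue; an open point was not well above background. On the left every red point, from 27.8 to 66.4, lies under every blue one, from 99.6 to 110.0, and on the right the colours overlap.

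The call on the dim probe was narrow. It was not well above background in Fto -/- replicate 3. With normexp background correction, whose offset of 50 shrinks differences at such intensities, its difference was -0.45 (limma adjusted p = 0.0675). It did not pass without Fto -/- replicate 2, 3 or 4 or without Fto +/+ replicate 1, 2 or 3 (-1.12, -0.91, -1.06, -1.10, -1.10 and -1.10), nor with the slide row as a block term (-1.06, adjusted p = 0.143), and within rows 1 and 2 it was -0.98 and -1.14 (adjusted p = 0.598 in each).

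**Figure D3:**
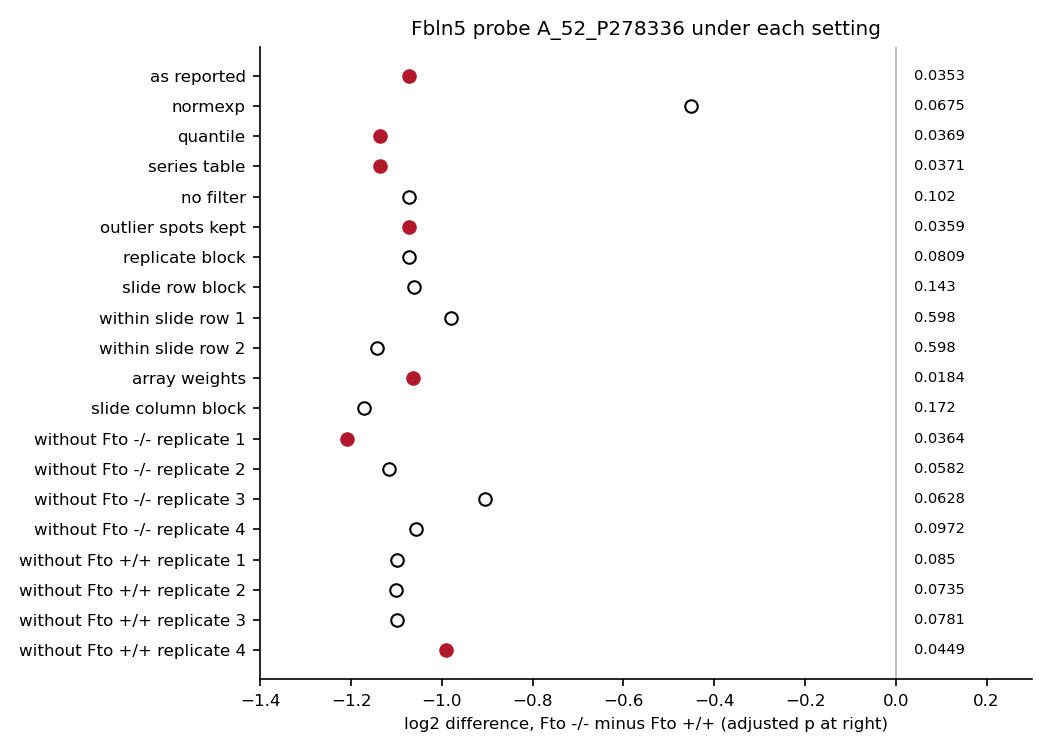
Log2 difference of Fbln5 probe A_52_P278336, Fto -/- minus Fto +/+ (horizontal axis), under each processing setting or with 1 array left out, with the adjusted p at the right; filled red points pass 0.05. All values lie below 0, from -1.21 to -0.45.

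RefSeq gives Fbln5 more than 1 transcription start. The 250 bases before each of 2 starts are shown because a probe of Fbln5 was the 1 that passed the test. Bases are from the minus strand of build GRCm38.p6 (the array itself is annotated on mm9), with GGGCGG and CCAAT, on either strand, in capitals.
Fbln5 first start, chr12:101819120-101819369: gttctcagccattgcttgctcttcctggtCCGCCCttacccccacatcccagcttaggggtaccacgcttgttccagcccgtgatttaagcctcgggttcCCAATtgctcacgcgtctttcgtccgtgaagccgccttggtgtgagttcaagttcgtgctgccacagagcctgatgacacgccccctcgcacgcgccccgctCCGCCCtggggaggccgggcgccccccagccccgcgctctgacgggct
Fbln5 second start, chr12:101818485-101818734: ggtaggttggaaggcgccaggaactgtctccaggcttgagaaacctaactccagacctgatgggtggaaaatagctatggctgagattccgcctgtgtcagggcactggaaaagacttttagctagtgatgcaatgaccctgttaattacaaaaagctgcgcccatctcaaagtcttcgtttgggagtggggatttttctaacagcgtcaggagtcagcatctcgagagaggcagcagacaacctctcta
The first window has a GC content of 65.2% and holds GGGCGG at 2 places and CCAAT at 1. The second has a GC content of 49.6% and holds neither. The median GC content of all 32851 such windows was 52.4%, and GGGCGG occurred in 32.7%, CCAAT in 33.8% and TATAAA in 12.4% of them. TATAAA was in neither Fbln5 window. A match is a match of letters only. The place of either probe along the transcript is not given in the files.

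The other fibulin genes did not pass. Efemp2, needed for lysyl oxidase to reach tropoelastin, had levels of 5.17, 4.94, 4.91 and 5.03 in Fto -/- replicates 1 to 4, against 5.24, 5.31, 4.95 and 5.0 in Fto +/+ replicates 1 to 4. The genotypes overlapped, and the difference was -0.11 ± 0.12 (SE; 95% interval -0.38 to 0.15, adjusted p = 0.626). Fbln2, a fibulin that binds fibrillin and tropoelastin, had levels of 5.98, 5.73, 4.74 and 5.75 in Fto -/- replicates 1 to 4. In Fto +/+ replicates 1 to 4 it had 5.95, 4.62, 6.15 and 5.89. One array of each genotype, Fto -/- replicate 3 and Fto +/+ replicate 2, stood well under the rest. The difference was -0.11 ± 0.38 (SE; 95% interval -0.97 to 0.76, adjusted p = 0.904), and it turned to 0.16 without that Fto -/- array and to 0.059 without Fto +/+ replicate 3, while within slide rows 1 and 2 it was -0.47 and 0.19.

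Eln, which encodes tropoelastin, varied more within genotypes than between them. Its level was 4.15, 3.85, 3.50 and 3.35 in Fto -/- replicates 1 to 4, against 4.75, 3.31, 3.90 and 3.66 in Fto +/+ replicates 1 to 4. The highest and the lowest of the 8 arrays were both Fto +/+. The mean was 3.71 ± 0.36 in Fto -/- and 3.91 ± 0.61 in Fto +/+ samples (SD, n = 4 each). The difference was -0.19 ± 0.31 (SE; adjusted p = 0.762), and its 95% interval ran from -0.89 to 0.50, which leaves room for a level up to 1.85-fold lower or 1.42-fold higher in Fto -/- samples. It turned to 0.088 without Fto +/+ replicate 1, and was -0.60 with the slide row as a block term (adjusted p = 0.346) and -0.92 and -0.27 within rows 1 and 2. The row 1 value rests on Fto +/+ replicate 1 alone for its genotype, the highest of the 8 arrays. That of row 2 rests on Fto -/- replicate 4 alone for its genotype, the lowest Fto -/- array.

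The cross-linking enzymes showed no difference past the threshold with any of their 4 probes. Lox, which oxidises lysines of elastin and collagen, read levels of 1.68, 1.13, 0.89 and 0.60 in Fto -/- replicates 1 to 4 with probe A_55_P2032678, against 1.87, 0.50, 1.55 and 1.01 in Fto +/+ replicates 1 to 4. Fto -/- replicate 1 and Fto +/+ replicates 1 and 3 were the 3 highest arrays, and the genotypes overlapped. The differences of its 2 probes were -0.15 ± 0.32 and -0.21 ± 0.30 (SE; adjusted p = 0.829 and 0.734). With slide row as a block these were -0.52 and -0.58 (adjusted p = 0.487 and 0.397), within row 1 -0.63 and -0.70, and within row 2 -0.41 and -0.45. The 2 Lox probes deviated from their genotype means by amounts that parted by at most 0.18 on any array.

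Loxl1, which encodes a lysyl oxidase tied to elastin renewal, differed by -0.035 ± 0.12 with its brighter probe and by -0.20 ± 0.18 with its dimmer one (SE; adjusted p = 0.896 and 0.583). The brighter probe spanned 5.15 to 5.38 in Fto -/- arrays, against 5.03 to 5.47 in Fto +/+ arrays, and its 95% interval was -0.31 to 0.23. The log2 ratio of dimmer to brighter probe differed between genotypes by -0.059 for Lox and by -0.16 for Loxl1 (exact two-sided permutation p = 0.514 and 0.286, adjusted over the 3 pairs 0.514 and 0.429).

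Of the scaffold genes, Fbn1, which encodes the main fibrillin of adult microfibrils, had levels of 3.39, 3.00, 3.13 and 3.00 in Fto -/- replicates 1 to 4, against 3.53, 2.98, 3.46 and 3.11 in Fto +/+ replicates 1 to 4. Both genotypes spanned nearly the same range. The difference was -0.14 ± 0.15 (SE; 95% interval -0.49 to 0.21, adjusted p = 0.649), and -0.27 with the slide row as a block term (adjusted p = 0.517). Fbn2, the fibrillin best known from development, was not tested. Its probe A_55_P2121096 was well above background only in Fto +/+ replicate 2, at an intensity of 63.0. It read 33.8, 18.4 and 12.6 in Fto +/+ replicates 1, 3 and 4, and 11.6 to 22.0 in Fto -/- arrays. Probe A_51_P103850 was well above background on no array, with intensities of 5.52 to 6.68 in Fto -/- arrays, against 6.84 to 27.1 in Fto +/+ arrays. Intensities are not scaled between arrays, and by level the genotypes overlapped for both probes. The levels of A_51_P103850 were -6.06 to -5.65 in Fto -/- arrays, against -5.78 to -3.82 in Fto +/+ arrays. These values carry no fold change.

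Mfap4, which encodes a fibrinogen-domain glycoprotein of the vessel wall, was the 1 tested member with a difference above 0. Its level was 8.19, 8.02, 8.16 and 8.07 in Fto -/- replicates 1 to 4, against 8.11, 7.89, 7.99 and 7.69 in Fto +/+ replicates 1 to 4. Fto +/+ replicate 1 lay among the Fto -/- values and the other 3 lay below them. The difference of 0.20 ± 0.11 (SE; 95% interval -0.056 to 0.45) did not pass (adjusted p = 0.373), and within slide rows 1 and 2 it was 0.020 and 0.22. Emilin1, which encodes an elastin interface protein, had the smallest spread of the tested members, with levels between -0.080 and 0.11 in Fto -/- arrays, against -0.11 and 0.12 in Fto +/+ arrays. Its difference was -0.0093 ± 0.094 (SE; 95% interval -0.22 to 0.21, adjusted p = 0.966), a sign that other settings turn.

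**Figure D4:**
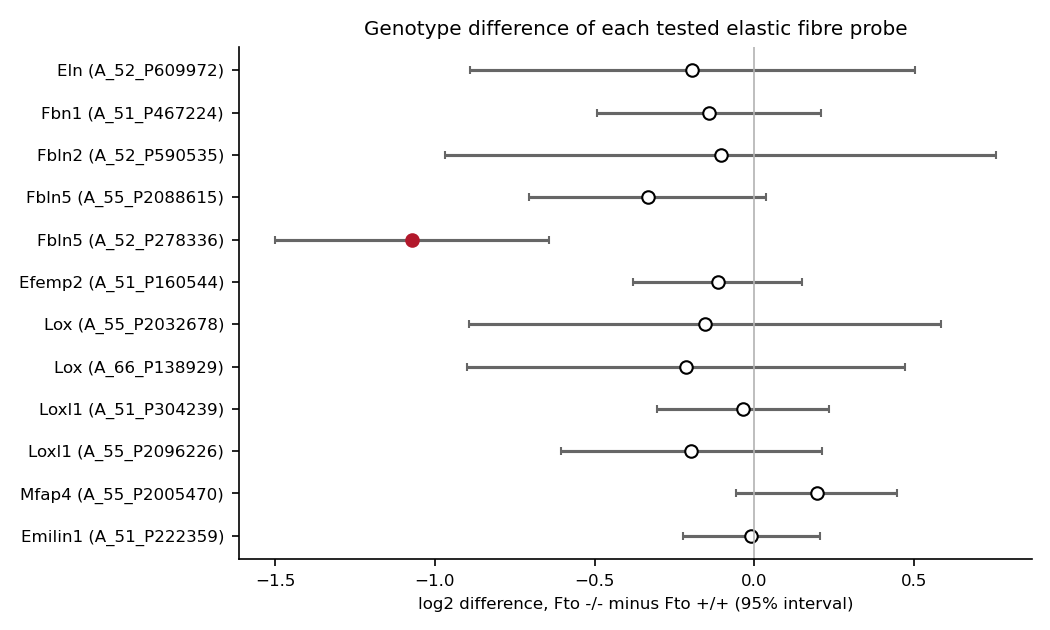
Log2 difference, Fto -/- minus Fto +/+ (horizontal axis), of each tested probe with its 95% interval from limma; the filled red point passes the threshold over all tested probes. The interval of Emilin1 spans -0.22 to 0.21 and that of Fbln2 -0.97 to 0.76.

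The members differed widely in how much they varied between arrays of 1 genotype. The within-genotype SD ran from 0.097 for Emilin1 to 0.63 for Fbln2, with 0.50 for Eln, against a median of 0.21 over all tested probes (quartiles 0.14 and 0.32). Of the 12 probes, 11 lay above their genotype mean in Fto -/- replicate 1 and 10 in Fto +/+ replicate 1, while 10 lay below it in Fto -/- replicate 3 and 10 in Fto +/+ replicate 2. The other arrays were more mixed, with 5 and 4 of the 12 above in Fto -/- replicates 2 and 4, and 8 and 3 in Fto +/+ replicates 3 and 4. The same share over all tested probes was not worked out for these arrays, and several of the 12 probes share a gene. The deepest deviation was that of Fbln2 in Fto +/+ replicate 2, at -1.03. In that array Efemp2 and the bright Fbln5 probe were the 2 that stood above their mean, by 0.19 and 0.35.

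**Figure D5:**
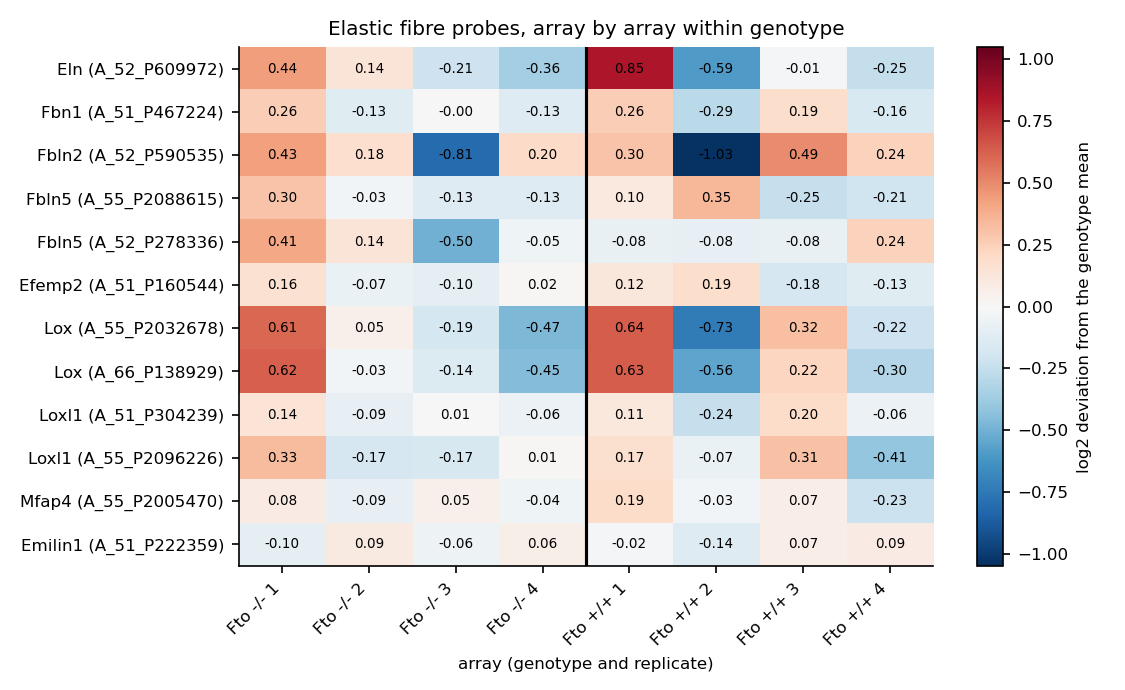
Deviation of each tested probe from the mean of its genotype (log2, colour and printed value) in each array, Fto -/- left of the line and Fto +/+ right of it. The Eln and Lox rows run alike, high in replicate 1 of both genotypes and low in Fto +/+ replicate 2 and Fto -/- replicate 4.

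By the root mean square difference of levels centred on their mean over the 8 arrays, Lox was the member nearest to Eln, at 0.17, followed by Fbn1 at 0.29. Eln's own root mean square deviation was 0.45. Among 13039 genes and members so ranked, Lox was at place 2 and Fbn1 at place 35. The other members were far down: Loxl1 at place 348, Mfap4 at 1962, Efemp2 at 2561, Emilin1 at 4299, Fbln5 at 4354 and Fbln2 at 4656. Emilin1, Fbln5 and Fbln2, at 0.453, 0.453 and 0.457, lay beyond Eln's own 0.446. The nearest genes that are no members were Clock (0.17), which encodes a circadian transcription factor, Ren1 (0.18), which encodes renin, and Rnft1 (0.22), which encodes a RING finger protein. All values share the same 8 arrays, and this is a description of likeness over them.

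Other genes of fibre assembly and of elastin breakdown did not pass either. Of 34 further assembly genes (latent TGF-beta binding proteins, other fibulins and microfibril proteins, lysyl oxidases, integrins), 31 were measured and 0 passed in limma, against 1.8% of 13050 genes, and 10 had an unadjusted p under 0.05, against 20.7%. With any probe of a gene taken the count was again 0, against 2.22% of genes. Their median difference was 0.038, against -0.038 over all genes. By the probe of highest mean, integrin subunit genes had the smallest p-values. By any probe, the smallest adjusted p was 0.0712, from a dimmer probe of Vcan, a gene named after its value was seen. Itgav had a level of 1.26 ± 0.12 in Fto -/- and 0.82 ± 0.15 in Fto +/+ samples (SD, n = 4 each; difference 0.44 ± 0.11 SE, limma adjusted p = 0.0885). Itga8 had 7.37 ± 0.12 in Fto -/- and 7.76 ± 0.096 in Fto +/+ samples (SD, n = 4 each; -0.39 ± 0.098 SE, limma adjusted p = 0.0894). The genotypes did not overlap for either gene, as was so, in either direction, for 12.1% of all tested probes. Both genes were named for their small p-values. Fbln1, Mfap2, Ltbp2, Ltbp4 and Thsd4 of the list did not overlap either, with differences of 0.50, 0.84, 0.38, -0.13 and -0.43.

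Of 18 elastases, related proteases and their inhibitors, 11 were measured, 0 passed in limma and 1 had an unadjusted p under 0.05, against 1.8% and 20.7% of all genes, with a median difference of -0.017. Mmp2, a gelatinase gene, differed by 0.71 ± 0.29 and the protease inhibitor gene Serpine2 by -0.38 ± 0.17 (SE; limma adjusted p = 0.237 and 0.275). The macrophage elastase gene Mmp12 and the gelatinase gene Mmp9 reached a signal well above background on 0 arrays.

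Markers of the cell types in the samples moved between arrays as well. A list's level is the mean of its genes, each centred over the 8 arrays. The smooth muscle list, the cells that lay down most medial elastin, spanned -0.27 to 0.021 in Fto -/- arrays, against -0.050 to 0.34 in Fto +/+ arrays. The adventitial fibroblast list spanned 0.010 to 0.33 in Fto -/- arrays, against -0.70 to 0.19 in Fto +/+ arrays. The endothelial list spanned -0.34 to 0.20 in Fto -/- arrays, against -0.11 to 0.42 in Fto +/+ arrays. The genotypes overlapped in each of these lists. In limma 0 of 6 genes passed in each, with 2, 1 and 0 at an unadjusted p under 0.05, against 1.8% and 20.7% of all genes.

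The brown adipocyte list spanned -0.28 to 1.84 in Fto -/- arrays, against -1.82 to -0.054 in Fto +/+ arrays. Its 5 measured genes had 0 called by limma and 4 with an unadjusted p under 0.05, against 1.8% and 20.7% of all genes. The median difference of this list was 1.88, against -0.038 over all genes. The white adipocyte list spanned -0.25 to 1.07 in Fto -/- arrays, against -1.57 to 0.83 in Fto +/+ arrays, and its member Lep was well above background on 0 arrays. The T cell and thymocyte list spanned -1.07 to 1.57 in Fto -/- arrays, against -1.48 to 1.22 in Fto +/+ arrays. The macrophage list spanned -0.41 to 0.86 in Fto -/- arrays, against -1.24 to 0.32 in Fto +/+ arrays. The cardiac and skeletal muscle list spanned -1.21 to 0.91 in Fto -/- arrays, against -0.50 to 0.87 in Fto +/+ arrays. In the white adipocyte, T cell, macrophage and muscle lists, limma called 0 of 5, 6, 5 and 6 measured genes. In that order, 1, 1, 0 and 1 had an unadjusted p under 0.05, and the median differences were 0.61, 1.42, 0.44 and -0.52. The 2 arrays with low Fbln2, picked for that value, held the highest T cell level of their genotype, 1.57 in Fto -/- replicate 3 and 1.22 in Fto +/+ replicate 2. The white adipocyte list was at its highest, 1.07, in the first of these arrays and at its lowest, -1.57, in the second. Of the T cell list, Cd3g, Cd8a and Rag1 were well above background on 4, 3 and 3 Fto -/- arrays but on only 1 Fto +/+ array each. They passed the filter through the Fto -/- group, so their differences of 2.54, 1.62 and 1.79 rest on Fto +/+ values near background. These genes raise the list's median difference of 1.42, and its 1 unadjusted p under 0.05 was that of Cd3g. Lck, Cd3e and Cd4 were well above background on every array and differed by 1.21, 0.18 and 0.060. Their SDs were 1.90, 0.34 and 0.10 in Fto -/- and 1.88, 0.21 and 0.30 in Fto +/+ samples (n = 4 each). The part of these markers in the results on the elastic fibre genes was not tested.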

How the data were processed

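RNA of 8 thoracic aorta samples was read on Agilent SurePrint arrays. Per the file headers, the authors extracted spot intensity with version 11.0.1.1 of Agilent's Feature Extraction. Its processed intensity has the background subtracted and carries no scaling between arrays. A table for the whole series was also deposited, in log2 values. Set against the scanner values centred per probe, it correlated at 0.925 to 0.996 and had column medians of -0.0095 to 0.0049. How it was normalised is not stated in the sources used here.

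Control spots were left out and outlier spots set to missing. Each value was log2 of the processed intensity, with that of the array's 75th percentile subtracted. A probe well above background on at least 4 arrays was tested with limma 3.58.1 in R 4.3.3, with Benjamini-Hochberg adjustment over all 25292 such probes and a threshold of 0.05. Names came from RefSeq accessions in a gene table of GRCm38.p6 (28325 of 55681 probes), and the array is annotated on mm9, per the file headers. In a list, the probe of highest mean stood for a gene. Probe pairs were compared by exact permutation tests. The fit was also run on simulated data with independent normal noise for each probe. These held no slide row effect and no background floor, so that run does not bear on the Fbln5 call.

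The members and lists were chosen with earlier results of these data known. Named are all members, the nearest 3 genes to Eln, Fto and, for the 2 lists of fibre assembly and breakdown, genes past the threshold or else the 2 of smallest p. Mmp12, Mmp9, Lep, the genes of the T cell list and those of the sex check were named after their values were seen. The same holds for Fbln1, Mfap2, Ltbp2, Ltbp4 and Thsd4. The normexp alternative used the median spot and background signals, with an offset of 50 added. Same-numbered samples of the 2 genotypes did not deviate together in all pairs (correlations of deviations 0.15, -0.023, -0.019 and -0.041), so the numbers were taken not to pair them. Precision rests on 4 arrays a genotype.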

Additional observations from a re-analysis of the deposited data

Results flagged for a closer look

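In 2 of the 24 sets of 4 arrays examined (12 probes in 2 genotypes) 1 array stood far from the other 3, and chance alone sets apart about 1 set in 20. Fbln2 in Fto +/+ replicate 2 had a level of 4.62, with the other Fto +/+ arrays between 5.89 and 6.15, a gap of 0.835 of the whole range. The dim Fbln5 probe in Fto +/+ replicate 4 had a level of -1.59, with the others between -1.92 and -1.91, a gap of 0.98 of the range.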

How the results depend on the processing

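The count of elastic fibre probes past the threshold, 1 as reported, was 1 with quantile normalisation, the series table, outlier spots kept and array weights. It was 0 with normexp, with no filter, with probes measured on all 8 arrays alone or with 1 probe per gene (these last 2 leave the dim Fbln5 probe out), with the replicate block, the slide row block, within row 1, within row 2 and with slide column as a block, a setting added after seeing the data. The count was 0 to 1 with 1 array left out. For that Fbln5 probe the replicate block gave -1.07 (adjusted p = 0.0809), no filter -1.07 (0.102) and the column block -1.17 (0.172); adjusted p ran from 0.0364 to 0.0972 with 1 array left out. The replicate block called 3 brown adipocyte markers (Ucp1, Cox8b and Cox7a1) and 0 other marker, assembly or elastase genes. Over all probes it called 90 higher and 42 lower, the row block 33 and 13, against 213 and 206 as reported. Fto passed everywhere but within rows 1 and 2 (-3.02 and -3.33), each 1 array against 3. With normexp and its offset of 50 the change in the Fbln5 probe gap was -0.085, and Fto differed by -1.96.

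Signs turned only where no probe passed: Eln was 0.067 with the column block and -0.39 to 0.088 with 1 array left out; Fbln2 0.19 within row 2 and -0.45 to 0.16; Lox probe A_55_P2032678 -0.40 to 0.058; the brighter Loxl1 probe 0.010 with quantile normalisation, 0.0099 in the series table and -0.12 to 0.030; Emilin1 0.018, 0.045 and 0.043 with the row block, within row 2 and with the column block, and -0.055 to 0.023. The gap between Lox probes ran from -0.089 to 0.0003. The cause was not tested. Emilin1, the brighter Loxl1 probe, Efemp2 and Mfap4 were bounded most tightly; the dim Fbln5 probe lies near background.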
